A study of Mus musculus with 8 samples.

Results

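Cxcl1, Cxcl2, Cxcl5 and Ppbp encode chemokines of the CXC family that attract neutrophils, and Cxcr2 encodes their receptor. These 5 genes were followed over 8 bead arrays of mouse colon, each by every probe that carries its symbol. That gave 7 of the 25697 probes, and 5 of the 16593 named genes. The genes were picked for their intensities in the 4 groups below, so their levels and differences are a description and carry no test. The RNA came from colon tumors of mice labelled caspase-12 deficient (C12-T, here deficient tumors), from normal colon of such mice (C12-N), from wild-type colon tumors (WT-T) and from wild-type normal colon (WT-N). All mice were of the C57BL/6 strain, and each group had 2 arrays. The study set tumor against normal colon with and without caspase-12, an inflammatory caspase. The labels used here give neither the mutant allele, nor how the tumors arose, nor the age of the mice or the place of sampling along the colon. Whether the 2 arrays of a group come from different mice was not stated either, so standard errors and p-values cover the spread between these samples alone, and that spread may be technical.

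Chemokines of this group carry a glutamate-leucine-arginine motif in front of their first cysteines, bind Cxcr2 on neutrophils and draw these cells out of the blood towards a source of ligand. Epithelial cells, fibroblasts and myeloid cells make Cxcl1, Cxcl2 and Cxcl5 when interleukin-1, tumor necrosis factor or interleukin-17 reaches them, largely through NF-kB and through control of mRNA decay. Ppbp encodes platelet basic protein, which is stored in platelet granules and is cut to a neutrophil-attracting form. In the gut these ligands are known for bringing neutrophils into inflamed mucosa and into tumors.

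Values below are background-corrected, quantile-normalized log2 intensities, and above background means a detection p-value under 0.01 on that array. The levels of different probes are not comparable with each other. Mean intensity before normalization was between 1112.5 and 1181.5 on the 8 arrays, and between 43.7% and 49.1% of probes were above background. Of 11 colon epithelium markers, 8 and 10 were above background in deficient tumors and 11 of 11 on the other 6 arrays. Their mean log2 intensity was 10.68 and 11.52 in deficient tumors and between 13.03 and 13.63 on the other 6 arrays. These markers thus match the tissue label less well in deficient tumors. The probe for Casp12, the targeted gene, read between 5.96 and 7.21 on the 4 deficient arrays and between 5.73 and 5.88 on the 4 wild-type arrays. It was above background on 2 of the 4 deficient arrays and on 0 of the 4 wild-type arrays. Whether it lies in the part of the gene that was altered is not known here, so it does not check the labels. 2 arrays held markers of tissue other than colon mucosa that their replicate did not hold. C12-T replicate 1 had all 8 skeletal muscle markers above background, with a summed intensity of 143934, against 1286 for replicate 2. WT-T replicate 1 also had all 8 of these above background, with a summed intensity of 6196, against 1090 and 4 of 8 for replicate 2. It further had 9 of 10 squamous epithelium markers above background, with a summed intensity of 83062, against 2137 for replicate 2. Both deficient tumor arrays held squamous markers too, with 9 and 10 of 10 above background and summed intensities of 69395 and 139692. Differences that rest on C12-T replicate 1 or WT-T replicate 1 are given below with and without that array. Leaving out 1 array does not take the squamous signal out of the deficient tumors.

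Cxcl1 and Cxcl2, ligands encoded side by side on the chromosome, were bright in deficient tumors. The Cxcl1 probe (ILMN_2763245) read 13.55 and 11.58 in C12-T, 6.40 and 6.53 in C12-N, 7.56 and 7.79 in WT-T, and 9.44 and 7.70 in WT-N. Both deficient tumors lay above all other arrays, and the deficient normal arrays lay lowest and were the only ones not above background. In the units of the deposited table, Cxcl1 gave intensities of 11781 and 3153 in deficient tumors, against between 195 and 729 on the other 6 arrays. The Cxcl2 probe (ILMN_2811154) read 10.27 and 8.37 in C12-T, 4.84 and 5.19 in C12-N, 5.40 and 5.20 in WT-T, and 6.22 and 5.24 in WT-N. Cxcl2 was above background on the 2 deficient tumor arrays and on none of the other 6. For both genes replicate 1 of the deficient tumors was the brighter one, by about as much. Over the 8 arrays the 2 probes went together with a Pearson r of 0.979, a description that carries the shared arrays and normalization.

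Since Cxcl1 and Cxcl2 went together, the sequences in front of their start sites are shown beside that of Ppbp, which had another pattern. They are 250 bases each, 5′ to 3′, from RefSeq on build GRCm38.p6, plus strand of chromosome 5. Cxcl1 covers chr5:90890995-90891244, Cxcl2 covers chr5:90903649-90903898 and Ppbp covers chr5:90768268-90768517. Capitals mark each match on either strand to GGNNTTTCC, the core of a form of the binding site of NF-kB. 4 of the 5 genes had an entry in the table used, and Cxcl5 was not among them.
Cxcl1: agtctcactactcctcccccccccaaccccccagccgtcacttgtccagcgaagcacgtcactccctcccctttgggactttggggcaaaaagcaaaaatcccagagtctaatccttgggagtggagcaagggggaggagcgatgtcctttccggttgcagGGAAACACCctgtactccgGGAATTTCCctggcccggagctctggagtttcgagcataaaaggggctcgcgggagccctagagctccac
Cxcl2: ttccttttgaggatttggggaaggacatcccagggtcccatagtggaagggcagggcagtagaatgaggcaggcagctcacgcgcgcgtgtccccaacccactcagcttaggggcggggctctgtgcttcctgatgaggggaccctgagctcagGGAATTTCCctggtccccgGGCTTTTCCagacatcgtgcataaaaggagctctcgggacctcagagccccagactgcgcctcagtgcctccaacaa
Ppbp: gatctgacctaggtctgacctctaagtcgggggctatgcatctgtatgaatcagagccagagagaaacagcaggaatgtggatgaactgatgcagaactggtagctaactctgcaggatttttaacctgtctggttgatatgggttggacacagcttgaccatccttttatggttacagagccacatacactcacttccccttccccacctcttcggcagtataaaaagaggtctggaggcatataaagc
The stricter form GGAATTTCC is in the Cxcl1 window with its first base 70 bases before the start site, and in the Cxcl2 window 96 bases before it. Each of these windows holds a second match to the looser form that does not overlap the first, at 89 bases in Cxcl1, on the minus strand, and at 77 bases in Cxcl2. Every match to the stricter form also matches the looser. Of the 32851 windows of the same length in the RefSeq table, 0.286% hold the stricter and 4.93% the looser form, on either strand. The Ppbp window holds neither. The neighbouring Cxcl3, whose probe was above background on 0 of 8 arrays, holds the stricter form 72 bases before its start site. A match is a run of letters only, and binding was not measured.

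Cxcl5, a chemokine of activated epithelium, had its highest values in deficient tumors too, but was also high on a wild-type tumor array. Its probe (ILMN_1230278) read 12.82 and 13.10 in C12-T, 5.03 and 5.79 in C12-N, 11.85 and 8.00 in WT-T, and 9.63 and 8.31 in WT-N. It was above background on all arrays but the 2 of deficient normal colon. The deficient tumors lay above every other array, the wild-type tumors spanned both wild-type normal arrays, and the deficient normal arrays lay below all others.

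Ppbp was very bright on both deficient tumors and WT-T replicate 1, intermediate on WT-N replicate 1 and near background on the other 4 arrays. The first of its probes (ILMN_1228102) read 12.43 and 14.10 in C12-T, 4.99 and 5.09 in C12-N, 13.97 and 5.03 in WT-T, and 8.14 and 4.89 in WT-N. The second (ILMN_2908435) read 12.50 and 13.91 in C12-T, 4.95 and 5.08 in C12-N, 13.56 and 4.94 in WT-T, and 7.95 and 5.04 in WT-N. Both probes gave the same picture, since they never differed by more than 0.40 on an array (Pearson r 0.999 over the 8 arrays). Ppbp was above background on both deficient tumors, on WT-T replicate 1 and on WT-N replicate 1, and on none of the other 4 arrays. The 2 wild-type tumors thus lay at opposite ends of its range, and the spread within that group was larger than any difference between group means.

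Cxcr2, the receptor that neutrophils carry for these ligands, was at the edge of detection. Its first probe (ILMN_1223834) read 6.22 and 7.95 in C12-T, 4.85 and 4.95 in C12-N, 5.34 and 4.89 in WT-T, and 5.12 and 5.06 in WT-N. It was above background on C12-T replicate 2 only, with a detection p-value of 0.0175 on C12-T replicate 1, and both deficient tumors lay above the other 6 arrays. The second probe (ILMN_2737157) read between 4.87 and 5.04 on all 8 arrays and was above background on none. The Cxcr2 probes did not meet the condition for the fit, a detection p-value under 0.01 on at least 2 arrays, so 5 of the 7 probes and 4 of the 5 genes entered it.

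**Figure D1:**
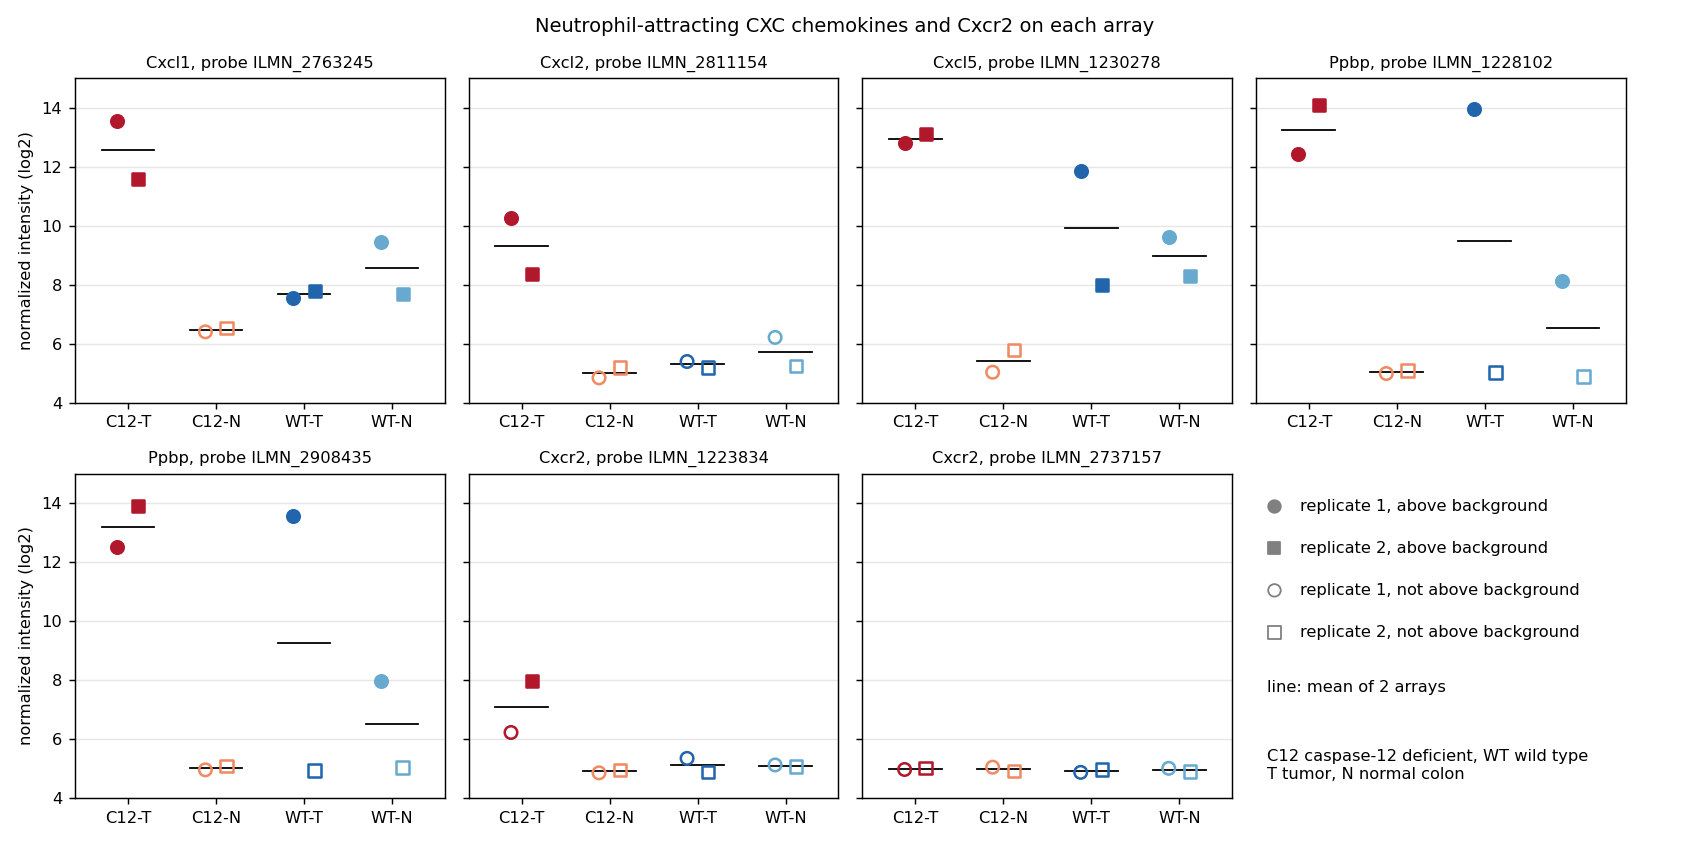
Normalized log2 intensity (vertical axis) of each of the 7 probes on each array, by group, with the group mean as a line and open symbols where the probe was not above background. The deficient tumors are highest for Cxcl1, Cxcl2 and Cxcl5, while for Ppbp WT-T replicate 1 (13.97 for ILMN_1228102) lies among the deficient tumors.

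Deficient tumors against deficient normal colon gave the largest differences of the 4 comparisons for Cxcl1, Cxcl5 and Ppbp. Cxcl1 averaged 12.56 ± 1.39 in deficient tumors and 6.47 ± 0.0906 in deficient normal colon (SD, n = 2 each), a log2 difference of 6.10 (SE 0.71). A group with no array above background, such as deficient normal colon here, allows only a lower bound of the fold. For the bound each of its arrays takes the dimmest detected intensity of that array, or the probe's own value if that is higher. For Cxcl1 the tumors were at least 53.9-fold higher. Cxcl2 averaged 9.32 ± 1.34 in deficient tumors and 5.02 ± 0.246 in deficient normal colon, a difference of 4.30 (SE 0.59, at least 5.67-fold). Cxcl5 averaged 12.96 ± 0.197 in deficient tumors and 5.41 ± 0.532 in deficient normal colon, a difference of 7.55 (SE 1.09, at least 70.9-fold). Cxcl5 thus had the tightest tumor replicates of the 4 ligands. Ppbp averaged 13.27 ± 1.18 in deficient tumors and 5.04 ± 0.0693 in deficient normal colon by ILMN_1228102, a difference of 8.23 (SE 2.49, at least 87.7-fold), and ILMN_2908435 gave 8.19 (SE 2.38, at least 84.1-fold). For Cxcr2 the difference was 2.19 by ILMN_1223834, at least 1.21-fold with 1 of 2 tumor arrays above background, and 0.01 by ILMN_2737157. In bulk tissue, more cells of a type and more RNA per cell cannot be told apart.

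In that comparison 3 of the 4 genes in the fit, Cxcl1, Cxcl2 and Cxcl5, passed limma's adjusted threshold of 0.05, all higher in tumors, where 9.43% of all genes did. All 4 had groups that did not overlap, with the tumors higher, where 31.8% of all genes did. The genes were chosen on this contrast, so nothing is read from these counts. Ppbp stood at the threshold, with ILMN_2908435 past it, where 8.7% of all probes were as higher, and the brighter probe ILMN_1228102, which stands for the gene, not. ILMN_1228102 also passed without WT-T replicate 1 or without WT-T replicate 2, while ILMN_2908435 lost its call without any 1 of the 6 other arrays. Leaving out C12-T replicate 1, the array with muscle markers, gave differences of 5.11 for Cxcl1, 3.35 for Cxcl2, 7.69 for Cxcl5 and 9.06 for Ppbp (ILMN_1228102).

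In wild-type mice none of the ligands separated tumors from normal colon. Cxcl1 averaged 7.67 ± 0.163 in wild-type tumors and 8.57 ± 1.23 in wild-type normal colon (SD, n = 2 each), a difference of −0.90 (SE 0.71). Cxcl2, above background on none of these 4 arrays, differed by −0.43 (SE 0.59), a value within background. Cxcl5 averaged 9.92 ± 2.72 in wild-type tumors and 8.97 ± 0.935 in wild-type normal colon, a difference of 0.95 (SE 1.09). Ppbp averaged 9.50 ± 6.32 in wild-type tumors and 6.52 ± 2.30 in wild-type normal colon by ILMN_1228102, a difference of 2.98 (SE 2.49), with 2.76 (SE 2.38) by ILMN_2908435. The groups overlapped for all 4 ligands, where 22.7% of all genes had both tumors higher and 23% had both lower, and each of these differences was smaller than the wider of the 2 group ranges. Both positive differences rested on WT-T replicate 1. Without that array Cxcl5 differed by −0.98, and Ppbp by −1.49 and −1.56 by its 2 probes. In the fit 0 of the 4 genes passed, where 0% of all genes did. Over the 13327 probes of limma's fit the smallest adjusted p was 0.0927, with 1154 probes at an unadjusted p under 0.05.

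Deficient normal colon had less signal than wild-type normal colon for Cxcl1 and Cxcl5. Cxcl5 averaged 5.41 ± 0.532 in deficient and 8.97 ± 0.935 in wild-type normal colon (SD, n = 2 each), a difference of −3.56 (SE 1.09), which puts it at least 4.47-fold higher in wild-type. Cxcl1 averaged 6.47 ± 0.0906 in deficient and 8.57 ± 1.23 in wild-type normal colon, a difference of −2.10 (SE 0.71), at least 3.38-fold higher in wild-type. For Cxcl1 and Cxcl5 both deficient arrays lay below both wild-type arrays, as they did for 24.3% of all genes. Cxcl2 was above background on none of the 4 normal arrays, so its difference of −0.71 (SE 0.59) gives no order. Ppbp differed by −1.48 by both probes (SE 2.49 and 2.38), a gap that WT-N replicate 1 made alone, since without it ILMN_1228102 differed by 0.15. None of the 4 genes passed the adjusted threshold, where 1.15% of all genes passed as lower. Cxcl5 did pass without WT-T replicate 1, without WT-T replicate 2 and in a fit of only these 2 groups. By these means, the tumor minus normal difference of deficient mice was measured against a lower level than that of wild-type mice.

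Between the tumors of the 2 genotypes, Cxcl1 and Cxcl2 passed the threshold and Cxcl5 and Ppbp did not. Cxcl1 averaged 12.56 ± 1.39 in deficient and 7.67 ± 0.163 in wild-type tumors (SD, n = 2 each), a difference of 4.89 (SE 0.71), or 29.7-fold. Cxcl2 averaged 9.32 ± 1.34 in deficient and 5.30 ± 0.138 in wild-type tumors, a difference of 4.02 (SE 0.59), at least 6.84-fold. These 2 ligands were low on both wild-type tumor arrays. Cxcl5 averaged 12.96 ± 0.197 in deficient and 9.92 ± 2.72 in wild-type tumors, a difference of 3.04 (SE 1.09), and Ppbp differed by 3.77 (SE 2.49) and 3.96 (SE 2.38) by its 2 probes. For Cxcr2 (ILMN_1223834) the difference was 1.97, at least 1.45-fold, with 1 of 2 deficient arrays above background. Cxcl1, Cxcl2 and Cxcl5 had groups that did not overlap, as did 30.1% of all genes with the deficient tumors higher, and the Ppbp groups overlapped. In the fit 2 of the 4 genes passed, Cxcl1 and Cxcl2, both higher in deficient tumors, where 8.54% of all genes passed as higher. The genes were chosen on these groups, so nothing is read from these counts either.

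The value of WT-T replicate 1 set how Cxcl5 and Ppbp compared between the tumors. Without it, Cxcl5 differed by 4.97 and Ppbp by 8.24 (ILMN_1228102) and 8.27 (ILMN_2908435), and 4 of the 4 genes passed. Without WT-T replicate 2, Cxcl5 differed by 1.11 and Ppbp by −0.70 and −0.36. Cxcl1 and Cxcl2 did not depend on it in this way. Without WT-T replicate 1 they differed by 4.78 and 4.12, and without any 1 array between 3.91 and 5.88 for Cxcl1 and between 3.07 and 4.97 for Cxcl2.

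**Figure D2:**
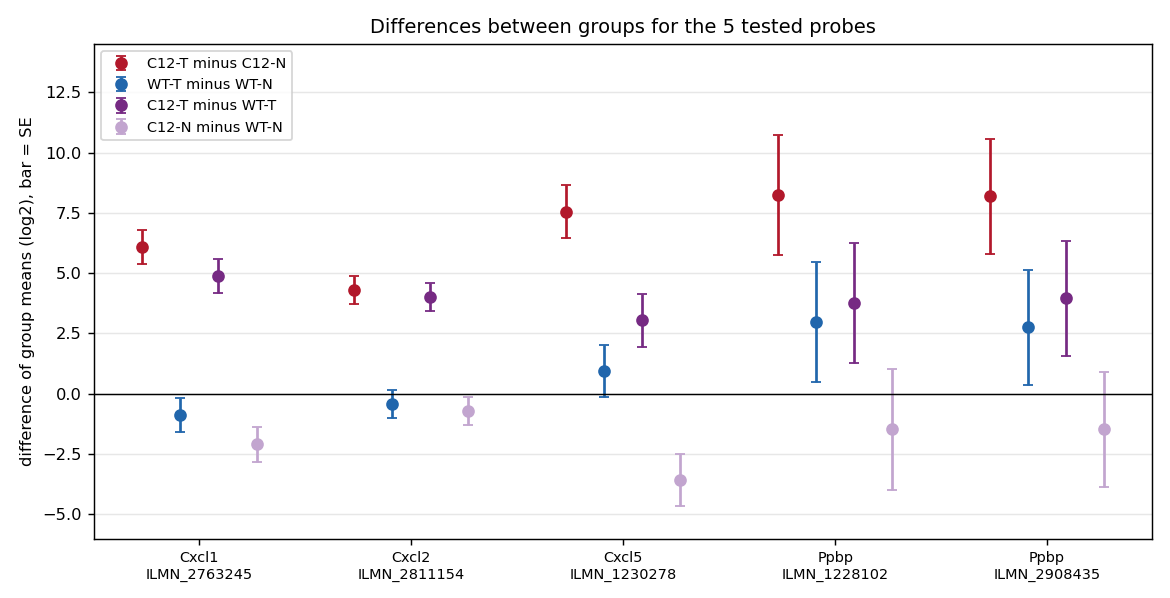
Difference of group means (vertical axis, log2) with its standard error from the fit, for the 5 probes in it and 4 comparisons. Cxcl1 and Cxcl2 lie far above 0 in both comparisons with deficient tumors (for Cxcl1 6.10 and 4.89) and have short bars, while the Ppbp bars are the longest (SE 2.49 and 2.38).

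The 4 comparisons share arrays, so their values are not independent. The difference between the genotypes in their tumor minus normal step was positive for all 4 ligands. It was 6.99 (SE 1.00) for Cxcl1, with 6.10 in deficient and −0.90 in wild-type mice. For Cxcl2 it was 4.73 (SE 0.84), with 4.30 in deficient and −0.43 in wild-type mice. Cxcl2 was not above background on any of the 6 arrays outside deficient tumors, so this term is a value against background and not a measured size. For Cxcl5 it was 6.60 (SE 1.54), and for Ppbp 5.25 (SE 3.53) and 5.44 (SE 3.37) by its 2 probes. Cxcl1, Cxcl5 and Ppbp were not above background in deficient normal colon, so their terms rest partly on background values. Ppbp was also not above it on WT-T replicate 2 and WT-N replicate 2. Cxcl1 and Cxcl2 passed in this interaction term and the other 2 did not, where 1.73% of all genes passed as higher. The count of 2 was 0 without C12-N replicate 1, without C12-N replicate 2 or without WT-T replicate 2, and 1 without WT-N replicate 1 or without WT-N replicate 2. Without WT-T replicate 1 it was again 2, but these were Cxcl5 (8.53) and Ppbp (9.72), while Cxcl1 (6.88) and Cxcl2 (4.83) did not pass.

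The 4 ligand genes lie in a row of CXC chemokine genes on mouse chromosome 5, in the order Cxcl5, Ppbp, Pf4, Cxcl3, Cxcl15, Cxcl1 and Cxcl2, with no other annotated gene between them. Neighbours in this row did not share 1 pattern. Ppbp and Pf4, both genes of platelet granule proteins, lie side by side, and Pf4 was above background on all 8 arrays. Pf4 read 12.49 and 11 in C12-T, 10.04 and 10.26 in C12-N, 9.22 and 10.86 in WT-T, and 10.24 and 9.56 in WT-N. On WT-T replicate 1, where Ppbp was among its brightest, Pf4 was at its lowest. Cxcl3 and Cxcl15, ligands of the same type between the 2 ends of the row, were above background on 0 of 8 arrays. Over the 8 arrays Cxcl5 and Ppbp went together with a Pearson r of 0.917 and 0.923 by the 2 Ppbp probes. Cxcl1 and Cxcl5 had an r of 0.817, Cxcl2 and Cxcl5 an r of 0.763, and Cxcl1 and Cxcl2 an r between 0.672 and 0.692 with the Ppbp probes. These describe the same 8 arrays and carry no test.

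**Figure D3:**
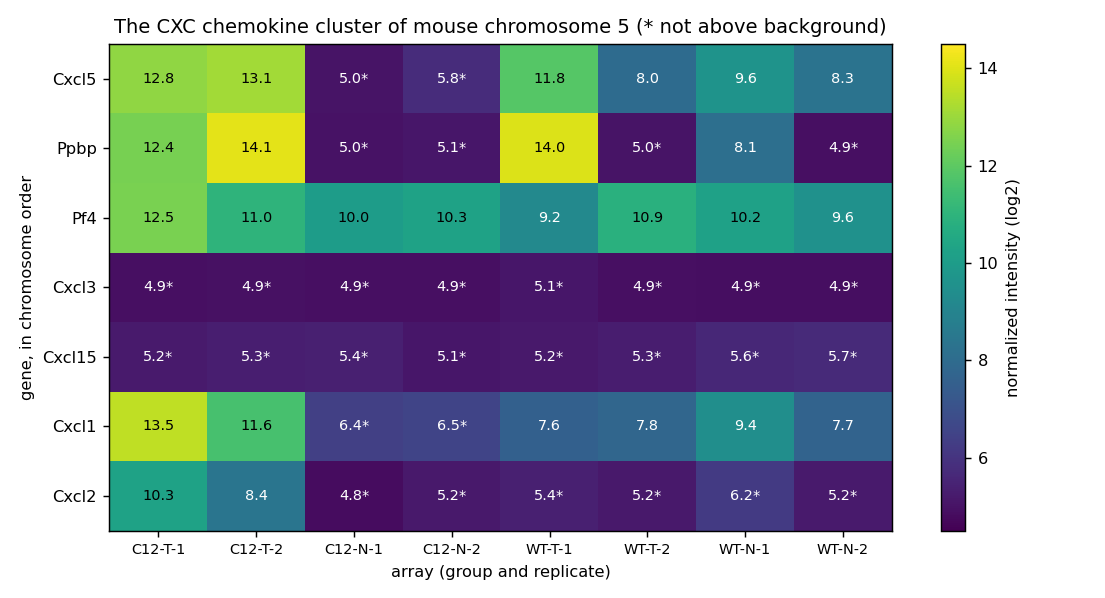
Normalized log2 intensity (colour and number) of the 7 CXC chemokine genes of the row on chromosome 5, in chromosome order down the page, on each array from left to right, with a star where the probe was not above background. Cxcl5 and Ppbp are high on WT-T replicate 1 (11.85 and 13.97) where Cxcl1 and Cxcl2 are not (7.56 and 5.40), and Cxcl3 and Cxcl15 are never above background.

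Most other CXC ligands draw lymphocytes and monocytes instead of neutrophils. Of 7 in the fit, 3 rose in deficient tumors over deficient normal colon and none fell, where 9.43% of all genes rose. These were Cxcl14, a ligand made by epithelium, by 2.18 (limma adjusted p = 0.00185), Cxcl16, a ligand on the cell surface, by 1.91 (adjusted p = 0.00667), and Cxcl10, induced by interferon, at least 2.19-fold (log2 difference 1.72, adjusted p = 0.0235). Cxcl10 lost this call without C12-N replicate 2, without C12-T replicate 2 and in a fit of only these 2 groups. The list's median was 1.69, against 0.00 over all genes. Deficient over wild-type tumors, Cxcl14 (2.88), Cxcl9 (2.77), also induced by interferon, and Cxcl10 (1.46) rose, where 8.54% of all genes did. The calls of Cxcl9 and Cxcl10 hung on single tumor arrays of both genotypes. Of all genes, 1.73% passed as higher in the interaction term. Cxcl14 kept its calls in both comparisons whichever array was left out. Its interaction term was 2.98 (adjusted p = 0.00962), not called without C12-N replicate 1 or without C12-N replicate 2. Among 6 other chemokine receptors, Cxcr4, the receptor of Cxcl12, rose at least 2.55-fold in deficient tumors over deficient normal colon (log2 difference 2.09, limma adjusted p = 0.00601). Cxcr5, the receptor that leads B cells to follicles, was lower in deficient than in wild-type tumors (−2.34, limma adjusted p = 0.00699), where 9.09% of all genes were. Cxcr1, the other receptor on neutrophils, was like Cxcr2 above background on C12-T replicate 2 only, at 6.90, a gene named here after its values were seen.

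Cytokines known to switch on these chemokines were higher in deficient tumors as well. A list of such cytokines and their receptors had 9 genes in the fit. In deficient tumors over deficient normal colon 5 rose and 1 fell, where 9.43% of all genes rose. The list's median was 2.15, against 0.00 over all genes. Il1b, the secreted interleukin-1 that needs an inflammatory caspase to mature, read 12.82 and 12.81 in C12-T, 6.77 and 7.21 in C12-N, 10.11 and 7.51 in WT-T, and 8.81 and 8.86 in WT-N. It rose by 5.83 over deficient normal colon (SE 0.71, limma adjusted p = 0.00249). Osm, the cytokine oncostatin M, rose at least 5.24-fold (log2 difference 3.73, adjusted p = 8.22e-04), Tnf at least 3.19-fold (3.17, adjusted p = 0.0166) and Il1a at least 2.48-fold (2.88, adjusted p = 0.0167). The gene that fell, where 10.5% of all genes did, was Il17rc, a subunit of the interleukin-17 receptor, with −1.60 (SE 0.33, adjusted p = 0.0157), named after its values were seen. The genes for interleukin-17 themselves could not be followed. Il17a, Il17f and Il22 were above background on no array, and Il17c on C12-T replicate 1 only. The count of 6 was 3 without C12-N replicate 1 or without C12-N replicate 2.

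Deficient over wild-type tumors, 4 of these 9 genes rose, where 8.54% of all genes did, and 1 fell, with a median of 1.92. Il1b rose by 4.01 (SE 0.71, limma adjusted p = 0.0115), Osm by 3.08 (adjusted p = 0.00328), Il6 at least 1.94-fold (log2 difference 2.29, adjusted p = 0.00416) and Il1a by 2.19 (adjusted p = 0.0429), while Il17rc fell by 1.45 (adjusted p = 0.0239), where 9.09% of all genes fell. Like Cxcl2, Il6 was above background on the 2 deficient tumor arrays and on none of the other 6. It entered the fit through deficient tumors alone, and its interaction term is a value against background and not a measured size. The Il1a call over wild-type tumors hung on single arrays and on the processing. The count of 5 was 3 without C12-T replicate 1 or without WT-T replicate 2, and 2 in a fit of only these 2 groups. In the interaction term Il1b (5.85, adjusted p = 0.0271), Osm (3.49, adjusted p = 0.0134) and Il6 (2.46, adjusted p = 0.0211) passed, where 1.73% of all genes passed as higher, and 0 or 1 did without any 1 of the 4 normal arrays. In wild-type tumors against wild-type normal colon none of the 9 passed, where 0% of all genes did. In normal colon between genotypes none did either, where 1.15% of all genes passed as lower.

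Genes of the NF-kB pathway and of cytokine mRNA decay, which act on how much chemokine mRNA is made and kept, made up a list of 18 in the fit. The list's median in deficient tumors over deficient normal colon was 0.92, against 0.00 over all genes. Of the 18, 10 rose and none fell, where 9.43% of all genes rose. The largest were Bcl3, an IkB-like cofactor (1.70, SE 0.32, limma adjusted p = 0.0112), Tnfaip3, the enzyme A20 that restrains the pathway (1.62, adjusted p = 0.0153), Nfkbie, an IkB inhibitor (at least 2.39-fold, log2 difference 1.55, adjusted p = 0.0107), and Cebpb, a transcription factor of acute inflammation (1.45, adjusted p = 0.0142). That count hung on single arrays. It was 0 without C12-N replicate 2, 3 without C12-N replicate 1, 5 without C12-T replicate 1 or with only these 2 groups, and 6 without WT-N replicate 1 or without WT-N replicate 2. In normal colon Tnfaip3 (−2.09, adjusted p = 0.0237) and Zc3h12a, the nuclease regnase-1 that degrades cytokine mRNA (−1.84, adjusted p = 0.0215), were lower in deficient than in wild-type mice, though 0 of the 2 passed without any 1 of these 4 arrays. Of all genes, 1.15% passed as lower in that comparison and 1.73% as higher in the interaction term. Between tumors Bcl3 (1.12), Cebpb (1.09) and Rel (0.92) rose in the deficient ones, where 8.54% of all genes rose. That count of 3 was 0 without WT-N replicate 1, WT-N replicate 2 or WT-T replicate 2, and 1 without C12-T replicate 1 or WT-T replicate 1. In the interaction term Bcl3 passed (2.53, adjusted p = 0.0306), and lost its call without any 1 array but C12-T replicate 2.

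Markers of neutrophils, the cells that these chemokines attract, were higher in deficient tumors. Of 15 in the fit, 10 rose over deficient normal colon and none fell, where 9.43% of all genes rose, with a median of 3.61 against 0.00 over all genes. S100a8 and S100a9, the paired calcium-binding proteins of neutrophil cytosol, rose by 7.12 (SE 0.47, limma adjusted p = 4.86e-04) and 7.41 (SE 0.77, adjusted p = 0.00148). Retnlg, a resistin-like protein of mouse neutrophils, rose at least 17-fold (log2 difference 5.88, adjusted p = 5.54e-04), and Ltf, granule lactoferrin, by 8.42 (SE 2.05, adjusted p = 0.0278). S100a8, S100a9 and Retnlg kept their calls whichever array was left out, and Ltf lost its call without any 1 of the 4 deficient arrays. Over wild-type tumors 10 of the 15 also rose, where 8.54% of all genes did, with a median of 3.07. S100a9 rose by 5.92, Retnlg at least 20.5-fold, S100a8 by 4.92 and Lcn2, the iron-trapping lipocalin, by 3.94, and these 4 kept their calls whichever array was left out. In the interaction term 7 passed, among them S100a8 at 8.79 and Retnlg at 6.69, and the count was 2 without C12-N replicate 1 or C12-N replicate 2, and 4 without WT-N replicate 1 or WT-T replicate 2. In normal colon S100a8 was lower in deficient than in wild-type mice (−3.87, adjusted p = 0.00849), a call that was lost without WT-N replicate 1, WT-N replicate 2 or C12-N replicate 1.

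The summed intensity of the 23 neutrophil markers on the array was 120247 and 127218 in C12-T, 4779 and 4358 in C12-N, 48938 and 10284 in WT-T, and 21810 and 21653 in WT-N. Between 14 and 18 markers were above background in deficient tumors, and between 7 and 14 on the other 6 arrays. Deficient normal colon was thus lowest for these markers as it was for Cxcl1 and Cxcl5. Of the defining granule genes, Elane, Prtn3, Ctsg and Mmp8 were above background on no array, while Mpo, Camp and Ngp were above it on C12-T replicate 1 only, genes named after their values were seen. Lcn2 and the S100 genes are made by inflamed epithelium too. The part that the share of neutrophils has in the chemokine differences was not tested.

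Ppbp and Cxcl5 were brightest on the arrays with the most signal of squamous epithelium, the layered lining found at the anus and in skin. The summed intensity of the 10 squamous markers was 69395 and 139692 in C12-T, 1901 and 1882 in C12-N, 83062 and 2137 in WT-T, and 2996 and 1429 in WT-N. The 3 arrays with the brightest Ppbp were the 3 with 9 or 10 squamous markers above background, and on the other 5 arrays 2 or 3 were. Cxcl5 was also brightest on the same 3 arrays. On the other 5 it did not follow these markers. There Cxcl5 read 9.63 and 8.31 in WT-N, 8.00 on WT-T replicate 2, and 5.03 and 5.79 in C12-N. In deficient tumors over deficient normal colon 6 of the 10 rose and none fell, where 9.43% of all genes rose. The list's median was 6.22. Krtdap, a differentiation protein of keratinocytes, rose at least 103-fold (log2 difference 7.55, limma adjusted p = 0.00623), Lor, the envelope protein loricrin, by 7.12 (adjusted p = 3.63e-04), Krt14, a keratin of basal cells, by 6.93 (adjusted p = 0.0373) and Trp63, the transcription factor p63, at least 25.4-fold (6.64, adjusted p = 0.0465). Lor kept its call whichever array was left out, Krtdap lost it without C12-N replicate 2, and Krt14 lost it without any 1 of the 4 deficient arrays, and Trp63 without any 1 of these or of the 2 wild-type normal arrays. The count of 6 was 3 without C12-N replicate 2. Between tumors Lor (7.05), Krtdap (5.85), Krt1 (2.91) and Krt10 (2.54), keratins of the upper layers for the last 2, rose in the deficient ones, and 8 rose without WT-T replicate 1. The interaction term was called for Lor (5.79) and Krt1 (2.87), and for 6 without WT-T replicate 1, but for 1 without any 1 of the 4 normal arrays or without WT-T replicate 2. Of all genes, 8.54% rose in deficient over wild-type tumors and 1.73% passed as higher in the interaction term. The part of squamous tissue in the Ppbp and Cxcl5 values was not tested.

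Ppbp is best known from platelets. On C12-T replicate 1, where Ppbp read 12.43 (ILMN_1228102), platelet markers were brightest. Their summed intensity over 11 markers was 7516 and 3477 in C12-T, 2013 and 2541 in C12-N, 1517 and 2971 in WT-T, and 2042 and 1348 in WT-N. On WT-T replicate 1, where Ppbp read 13.97, the sum was the second lowest of the 8, and the platelet receptor gene Gp5 (5.04) and Treml1 (5.33) were not above background. Gp5 (8.83) and Treml1 (8.47), named after their values were seen, were above background on C12-T replicate 1 only, with 8 of 11 platelet markers. Of the 3 in the fit none passed in any of the 5 comparisons, though 1 did in deficient tumors over deficient normal colon without C12-T replicate 2, WT-T replicate 1 or WT-T replicate 2, and 1 over wild-type tumors and in the interaction without C12-T replicate 2. Pf4 differed by 1.60 in deficient tumors over deficient normal colon. Of all genes, 9.43% rose in that comparison and 8.54% in deficient over wild-type tumors. C12-T replicate 1 also had the highest sum of 3 erythroid markers, 61998, against 11495 in C12-T replicate 2 and between 305 and 6887 on the other 6 arrays. Of the erythroid genes Alas2, the first enzyme of heme synthesis, rose in deficient tumors, at least 4.24-fold over deficient normal colon (log2 difference 2.52, limma adjusted p = 0.0335) and at least 5.11-fold over wild-type tumors (3.77, adjusted p = 0.0106). Hba-a1, a globin chain, rose by 4.94 over wild-type tumors (adjusted p = 0.0233). Without C12-T replicate 2 the erythroid count over deficient normal colon was 2, and without any 1 of the 6 arrays of the other groups it was 0. Over wild-type tumors it was 0 without WT-T replicate 1 and 1 without C12-T replicate 1. Of 8 skeletal muscle markers none passed in any comparison. Without C12-T replicate 2 all 8 passed in both comparisons of the deficient tumors, and 1 passed over deficient normal colon without C12-T replicate 1. Cxcl1 and Cxcl2 were brighter on C12-T replicate 1 than on replicate 2, and Cxcl5, Ppbp and Cxcr2 were dimmer there. Any part of blood or muscle in these values was not tested.

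**Figure D4:**
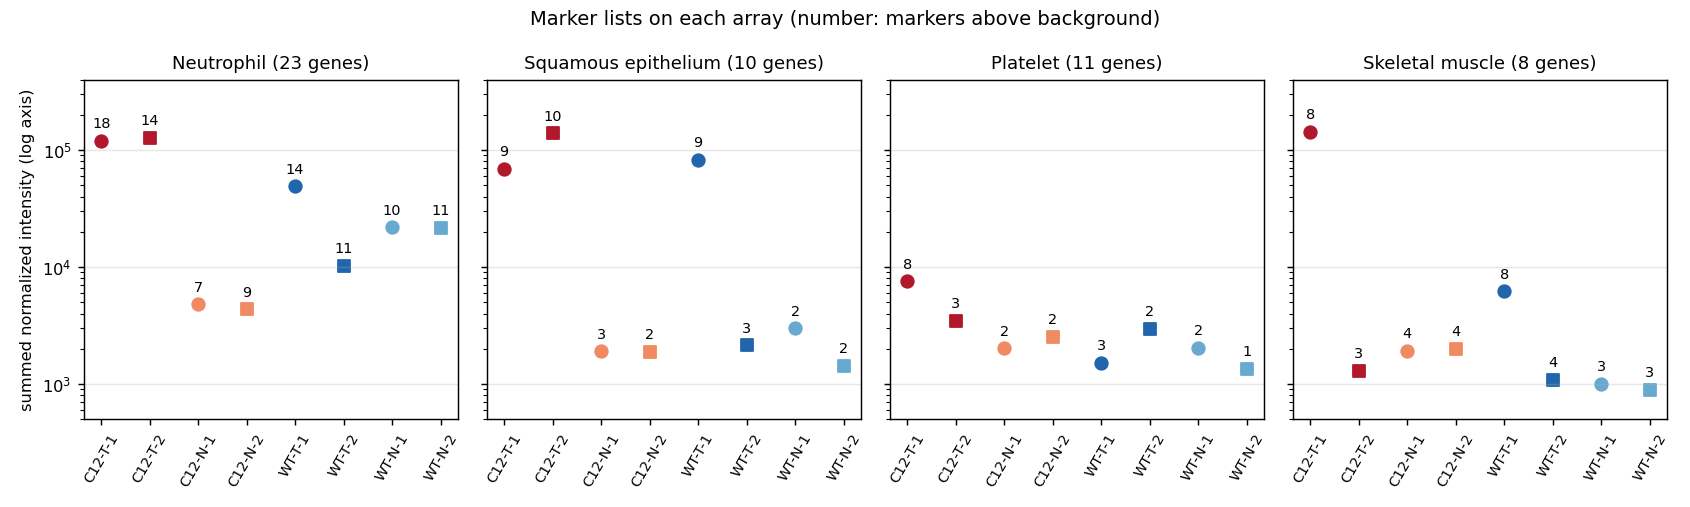
Summed normalized intensity (vertical log axis) of neutrophil, squamous epithelium, platelet and skeletal muscle markers on each array, with the number of markers above background over each point. Squamous markers are high on the deficient tumors and WT-T replicate 1 (69395, 139692 and 83062), the arrays where Ppbp is brightest. Platelet markers peak on C12-T replicate 1 (7516), which is among these arrays.

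For each ligand probe the 3 genes with the most similar values over the 8 arrays are given. For Ppbp several were keratins of layered epithelium. By ILMN_1228102 they were Krt14 (Pearson r 0.994), Moxd1 (0.991) and Krt5 (0.990), and by ILMN_2908435 they were Krt14 (0.994), Psca (0.992) and Krt13 (0.991). Krt14 read 14.89 and 16.01 in C12-T, 8.23 and 8.82 in C12-N, 15.91 and 9.38 in WT-T, and 10.79 and 8.35 in WT-N. Like Ppbp, it was high on WT-T replicate 1 and, to a lesser degree, on WT-N replicate 1. For Cxcl5 the nearest were Krt17 (0.988), a keratin of stressed epithelium, Psmc1 (0.983) and Dusp7 (0.977). For Cxcl2 they were Aif1l (0.997), Irx5 (0.996) and Sp6 (0.993), and for Cxcl1 they were Gsdma (0.988), Ramp3 (0.985) and Pdgfrl (0.984). Gsdma, a gasdermin of skin and upper gut, read 9.58 and 9.02 in C12-T, 5.39 and 5.55 in C12-N, 6.04 and 6.30 in WT-T, and 7.58 and 6.62 in WT-N. Like Cxcl1, it was low on both wild-type tumor arrays and lowest in deficient normal colon. These r values are the highest among the named genes in the fit, over 8 arrays, and describe likeness only.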

How the data were processed

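Per the file headers, each probe and array of the deposited raw table has an intensity and a detection p-value, and the submitters' processing notes name BeadStudio 3.2.7. The authors' series table is in log2 units. It matched, within 1.7e-05, each intensity over its array's mean after taking log2, and was an alternative. Per the labels' protocols, Trizol RNA was cleaned with a column and DNase I and labelled with Cy3. Of 25697 probes, 23978 had 1 gene symbol, 0 several and 1719 none.

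The neqc function of limma 3.58.1 (R 4.3.3) corrected background with an offset of 16, inferring negative controls from detection p-values, and quantile-normalized the arrays. Probes detected at p under 0.01 on at least 2 arrays, 13327 probes of 9341 genes, entered a single limma fit of 4 group means, with two-sided tests for 4 comparisons and the interaction and Benjamini-Hochberg adjustment over these probes. A gene's brightest probe stood for it. Named were, per list and comparison, up to 4 passing genes of largest difference (with none passing, the largest as a value), and for each ligand probe the 3 most alike genes. The members, lists, motifs and tests were chosen with earlier results of these data known. The fit was tested on simulated data. The labels do not say whether replicate numbers pair samples, and the fit did not pair them. Replicate differences correlated between groups at r from -0.0311 to 0.161, which cannot tell whether samples were paired. Precision is limited by having 8 arrays.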

Additional observations from a re-analysis of the deposited data

Results flagged for a closer look

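For Cxcl1 the step between tumor and normal colon differed between the genotypes, by a limma interaction term of 6.99 on the log2 scale (SE 1.00). The step was 6.10 in deficient mice and −0.90 in wild-type mice, with 2 of 2 deficient tumor arrays above both deficient normal arrays. For Cxcl2 the interaction term was 4.73 (SE 0.84), with steps of 4.30 in deficient mice and −0.43 in wild-type mice, again with 2 of 2 deficient tumors above both deficient normal arrays. Cxcl2 was above background on none of the 6 arrays outside deficient tumors, so its wild-type step lies within background and its interaction term is not a measured size. Cxcl1 was not above background in deficient normal colon, so its term rests partly on background values. With 1 array left out, the term ran from 6.01 to 7.98 for Cxcl1 and from 3.78 to 5.68 for Cxcl2. Neither gene kept its call whichever array was left out. Both genes were chosen with these groups in view, so the terms describe these 8 arrays.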

How the results depend on the processing

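Alternatives were cyclic loess or median scaling in place of quantiles, an offset of 50 or no background correction, the authors' log2 table, filters of detection on all 8 arrays, of p under 0.05 on at least 2, or none, array weights, a replicate block, only the 2 groups compared, a gene's mean over probes, and each array left out. Counts of the 4 ligand genes called were 3, 0, 0, 2 and 2 in the order deficient tumor over normal, wild-type tumor over normal, deficient over wild-type normal colon, deficient over wild-type tumor, and interaction. The replicate block, which joins arrays by number though the labels state no such pairing, gave 4, 0, 0, 2 and 2, with Ppbp added. Detection on all 8 arrays gave 0, since no ligand meets that filter. The interaction count was 1 with the authors' log2 table, 1 with no background correction and 0 with no filter. With only the 2 groups compared the count was 1 between normal colons and 4, with Ppbp, for deficient tumor over normal. Array weights gave 4 there, with Ppbp, and 3 in the interaction, with Cxcl5. The filter at p under 0.05 on at least 2 arrays gave 4 for deficient tumor over normal and 3 between tumors. Leaving out 1 array gave between 3 and 4, between 0 and 0, between 0 and 1, between 2 and 4 and between 0 and 2 in the same order. With 1 array left out, some ligand differences changed sign. For wild-type tumor over normal, Cxcl2 ran from −0.92 to 0.058 (above 0 without WT-N replicate 1), Cxcl5 from −0.98 to 2.87, and Ppbp from −1.49 to 7.45 and from −1.56 to 7.07 by its 2 probes (these 3 lowest without WT-T replicate 1). For normal colon, Ppbp by ILMN_1228102 ran from −3.10 to 0.15 (above 0 without WT-N replicate 1). Between tumors, Ppbp ran from −0.70 to 8.24 and from −0.36 to 8.27 (below 0 without WT-T replicate 2). Over all ligand differences and alternatives a call was lost 23 times and gained 15 times. The interaction could not be fitted with only 2 groups. Of 79 calls of named listed genes, 32 held whichever array was left out and none changed sign. Cxcl2 and Cxcr2 sit at background on most arrays, so their low values have no order.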

Other observations

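Other cell types also differed in deficient tumors, where the ligands were highest. Of 11 colon epithelium genes in the fit, 6 fell and 1 rose in deficient tumors over deficient normal colon, with a median of −1.54. Of all genes, 10.5% fell in that comparison, 9.09% fell in deficient over wild-type tumors, and 2.29% passed as lower in the interaction term. The water channel Aqp8 fell by 6.55 (limma adjusted p = 0.00103), carbonic anhydrase Car4 by 5.68 (adjusted p = 0.0123), the intestinal transcription factor Cdx2 by 3.96 (adjusted p = 0.00483) and Krt20, a keratin of mature colonocytes, by 2.02 (adjusted p = 0.0181). The count of 7 was 3 without C12-N replicate 1 or without C12-N replicate 2. Over wild-type tumors 6 fell, led by Car4 (−7.12), Aqp8 (−7.01), Slc26a3 (at least 2.59-fold lower, log2 difference −2.84) and Cdx1 (−1.90), and 3 did without WT-T replicate 1 or without WT-T replicate 2. In the interaction term Aqp8 (−5.84) and Slc26a3 (−2.19) passed, with 0 called without C12-N replicate 1, C12-N replicate 2, either wild-type normal array or WT-T replicate 2, and 6 without C12-T replicate 2.

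Of 8 macrophage genes 3 rose in deficient tumors over deficient normal colon, where 9.43% of all genes rose, with a median of 0.94. These were Cd14, the endotoxin co-receptor (1.73, limma adjusted p = 0.00326), the Fc receptor Fcgr3 (1.60, adjusted p = 0.00380) and the complement subunit C1qb (1.41, adjusted p = 0.0177). Over wild-type tumors Fcgr3 rose by 1.03 and Cd14 by 0.85, while the protease gene Ctss fell by 1.02, and 0 or 1 of these 3 passed when any 1 of the 4 tumor arrays was left out. Of 8 fibroblast and endothelial genes 2 rose over deficient normal colon, Col1a1 (2.24, adjusted p = 0.0177) and Cdh5 (at least 1.17-fold, log2 difference 1.36, adjusted p = 0.00618), and 1 rose without C12-N replicate 2. Of 7 lymphocyte genes the B cell receptor subunit Cd79b rose at least 3.85-fold over deficient normal colon (2.15, adjusted p = 0.0122) and was lower than in wild-type tumors (−1.57, adjusted p = 0.0370). The first of these calls was lost without either deficient normal array, and the second without any 1 of the deficient normal, deficient tumor or wild-type tumor arrays. Of all genes, 8.54% rose and 9.09% fell in deficient over wild-type tumors. In wild-type tumors over wild-type normal colon 0 genes of these lists passed, where 0% of all genes did.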
